A study of Mus musculus with 12 samples.

Results

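Ccdc50, a gene for a coiled-coil protein of the cytoplasm, was followed through RNA sequencing of mouse dorsal skin. It is 1 of the 36400 genes in the table and was chosen by its measured difference between the 2 groups of mice that received mesenchymal stem cells (MSCs). By the study's description the animals were female BALB/c mice, 6 weeks old at purchase, in 4 groups of 6 mice. The 12 libraries are 3 per group, from skin collected on day 30, and how these mice were picked is not described. Control mice received only the acetone and olive oil solvent on the skin. DNCB mice were sensitized with 1% and challenged with 0.5% 1-chloro-2,4-dinitrobenzene, a contact allergen that produces a dermatitis resembling atopic dermatitis. scMSC mice had the same DNCB course and, from day 13 to day 25, 4 injections of 2000000 human umbilical cord MSCs in 100 µL under the skin. scivMSC mice had the same course and the same number of MSCs per injection, but with 50 µL given into the tail vein and the other 50 µL under the skin. The MSC groups thus differ both in tail vein delivery and in the volume placed under the skin, and the effects of these cannot be told apart. The dorsal hair of all mice was shaved and treated with hair removal cream before the course began. It was shaved again shortly before the last MSC injection. An injection without cells is not described for the control and DNCB mice.

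The Ccdc50 protein, also called Ymer, binds ubiquitin chains and is phosphorylated on tyrosine after stimulation of the epidermal growth factor receptor. It is known to associate with A20, the ubiquitin-editing protein that restrains NF-κB signalling, and to act as a receptor that delivers activated RIG-I-like receptors, the sensors of viral RNA in the cytoplasm, to autophagy. Loss of its normal function is linked to hereditary hearing loss. In the table, the gene carries the annotation terms cytoplasm, cytosol, microtubule, ubiquitin protein ligase binding and sensory perception of sound.

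Ccdc50 (ENSMUSG00000038127) lies on the plus strand of chromosome 16, at 27388869 to 27452218 in GRCm38, and spans 63350 bases. No other gene of the GENCODE M21 annotation overlaps it. The 163 bases before its annotated start, at chr16:27388706-27388868 on the plus strand, are shown as the sequence before the first base of the gene model. They precede the start of the longest annotated transcript, at 27388869, while the 9-exon and 10-exon transcripts described below start at 27388980, and which start was used in these libraries was not measured. They come from the RefSeq promoter table for GRCm38.p6.
Ccdc50 promoter: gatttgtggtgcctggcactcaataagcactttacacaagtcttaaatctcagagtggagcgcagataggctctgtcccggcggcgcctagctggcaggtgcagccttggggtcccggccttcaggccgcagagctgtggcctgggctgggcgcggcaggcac
The whole 300-base promoter window, at chr16:27388706-27389005, had a GC content of 67.7% and 24 CpG dinucleotides, against a median of 7 over 32851 mouse promoters, and 80.0% of these promoters held fewer. Searched on both strands, the window held 1 GC box (GGGCGG, in 35.7% of all promoters), which lies after the bases printed. It held no TATA box (TATAAA, in 13.6%), no CCAAT box (CCAAT, in 37.4%), no AP-1 motif (TGACTCA, in 5.20%), no CRE (TGACGTCA, in 1.79%) and no E-box (CACGTG, in 7.15%). With 1 match in all, no matches overlapped.

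Of the 5 transcripts that the table lists for Ccdc50, 4 are in GENCODE M21. The longest has 11 exons and a coding sequence of 915 bases, another has 10 exons and 870 coding bases, and another 9 exons and 792 coding bases. The 45-base exon 7 of the longest transcript, which adds 15 codons, is also part of the 9-exon transcript and is absent from the 10-exon transcript. It is printed because it is a coding difference between isoforms that the gene-level values below do not resolve.
Ccdc50 exon 7, chr16:27436368-27436412, plus strand: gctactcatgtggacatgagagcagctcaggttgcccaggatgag
The FPKM and the estimated count of Ccdc50 implied the same length, 9164 to 9193 bases, in every library. The values are therefore 1 gene-level measurement on 2 scales, and which isoforms were present was not measured. In GENCODE M21 the joined exons of Ccdc50 cover 8639 bases, so the gene model behind the values is not exactly the one of that annotation.

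Ccdc50 RNA was low in all 3 scMSC mice and at a common higher level in the other 9. In FPKM, the fragment count scaled by gene length and library size, it measured 1.34, 1.11 and 1.61 in the scMSC libraries, and 10.4, 10.2 and 6.55 in the scivMSC libraries. The DNCB libraries had 9.24, 8.84 and 9.43 FPKM. The control libraries had 7.13, 9.63 and 10.5 FPKM. Control, DNCB and scivMSC overlapped one another, and no scMSC library overlapped any of them.

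The group means were 9.17 ± 0.302 FPKM for DNCB (SD, n = 3), 9.07 ± 1.73 for control, 9.03 ± 2.15 for scivMSC and 1.35 ± 0.253 for scMSC. In this order the first 3 neighbours did not differ beyond their spread, and the step to scMSC was far larger than the spread of any group. The scMSC mean was 14.7% of the DNCB mean, while the control and scivMSC means were 98.9% and 98.5% of it. The lowest of the 9 other libraries, scivMSC replicate 3, was still 4.06-fold above the highest scMSC library. Those 9 libraries spanned 1.60-fold from lowest to highest, and the 3 scMSC libraries 1.46-fold. DNCB mice had the narrowest spread, with a coefficient of variation of 3.30%, against 19.1% in control, 18.7% in scMSC and 23.9% in scivMSC.

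**Figure D1:**
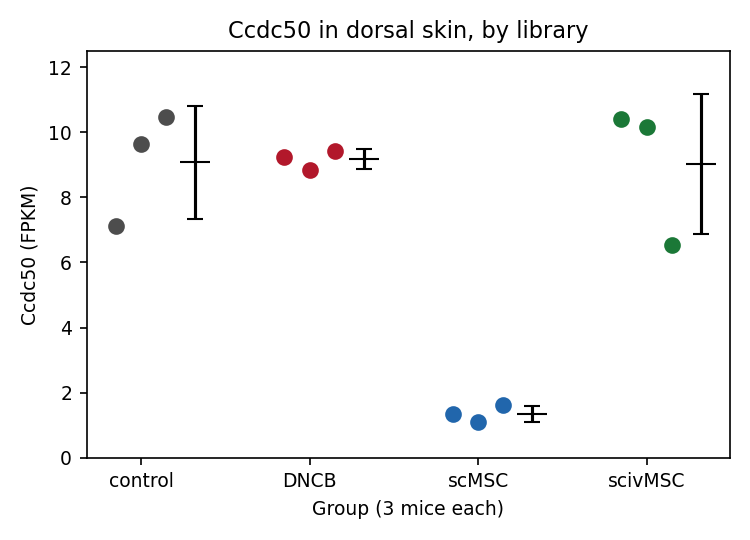
Ccdc50 level in FPKM (vertical axis, from 0) in each of the 12 libraries, by group; each point is 1 mouse and the bars at the right of each group are the mean ± SD of 3 mice. The scMSC points lie between 1.11 and 1.61 FPKM and all other points between 6.55 and 10.5.

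The low scMSC values were well measured. The scMSC libraries held estimated counts of 1015, 826 and 1181 for Ccdc50, of totals of 74943773, 73880590 and 72336972. If 1 fragment gave about 4 estimated counts, which was inferred from an excess of multiples of 4 among low counts and is stated in no source used here, these are 254, 207 and 295 fragments, far above a floor of 3. The other libraries held between 4358 counts, in scivMSC replicate 3, and 7791, in scivMSC replicate 1. Among the 21890 genes tested, Ccdc50 ranked at the 38.4 to 42.4 percentile of level in the scMSC libraries and at the 70.4 to 80.5 percentile in the others. Ccdc50 RNA was thus reduced but present in scMSC skin. In whole skin, fewer cells of a type that expresses a gene and less RNA per cell cannot be told apart.

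The values that chose the gene were those of scMSC against scivMSC. Its fitted log2 fold change was -2.72 ± 0.19 (standard error; 95% confidence interval -3.14 to -2.30), or 6.57-fold lower in scMSC, with an adjusted p of 0.000511 in the quasi-likelihood test of edgeR. Being the basis of the choice, this is a description and no test. Under the call used throughout, an adjusted p under 0.05 with an absolute log2 fold change over 1, Ccdc50 was the 1 gene called in this comparison, 0.00457% of the genes tested. The choice also used the scMSC and scivMSC libraries in every other contrast, so those too are descriptions. Ccdc50 was 2.74 ± 0.19 higher in DNCB than in scMSC on the log2 scale, -2.90 ± 0.19 in scMSC relative to control, 0.023 ± 0.18 in DNCB relative to scivMSC and -0.19 ± 0.18 in scivMSC relative to control. The shared scMSC libraries enter 3 of the comparisons, and each of them shows the same low values.

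The call of a single gene depended on the tool. With DESeq2, 115 genes passed the same thresholds between scMSC and scivMSC. In edgeR 1642 of the 21890 genes had an unadjusted p under 0.05. Genes without any difference also reach this threshold, at a rate of 0.05, so 1642 is not a count of differing genes. Just outside the edgeR call stood Ccr4, a chemokine receptor of T helper 2 cells and regulatory T cells, with an adjusted p of 0.555. Its level was 0.488 ± 0.104 FPKM in scMSC and 0.0790 ± 0.0221 in scivMSC, a log2 fold change of 2.61 ± 0.40. Cxcr2, a chemokine receptor of neutrophils, followed with 0.961 ± 0.0412 and 2.23 ± 0.479 FPKM, a log2 fold change of -1.19 ± 0.19 and an adjusted p of 0.565. Iqsec3, a guanine nucleotide exchange factor, had 0.202 ± 0.0366 and 0.0558 ± 0.0153 FPKM, 1.87 ± 0.33 and 0.565. Folds larger than that of Ccdc50 were found for 582 tested genes, of which 362 were lower in scMSC, and for 50 of the 582 the mean reached 1 FPKM.

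**Figure D2:**
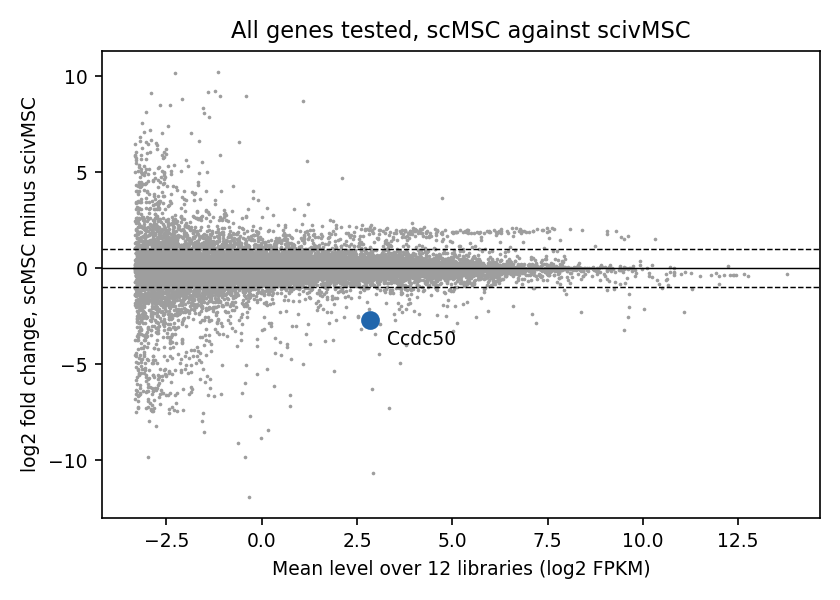
Log2 fold change of scMSC relative to scivMSC (vertical axis) against the mean level over 12 libraries in log2 FPKM (horizontal axis); each grey point is 1 of 21890 tested genes, the blue point is Ccdc50 and the dashed lines mark log2 fold changes of -1 and 1. Ccdc50 lies at -2.72, and 582 genes lie farther from 0 without passing the adjusted p of 0.05.

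DNCB against control was the one comparison of Ccdc50 that the choice did not use. Of all tested genes, 14.2% were called in it, and Ccdc50 was not. The log2 fold change was -0.16 ± 0.18 with a 95% confidence interval of -0.56 to 0.23 and an adjusted p of 0.552 in edgeR, and its sign turned to 0.015 when libraries were scaled by their size alone. That scaling moved the median of all genes in this comparison from 0.022 to 0.20. On log2(FPKM + 0.1) the difference was 0.034, with an exact two-sided permutation p of 1.0, where 3 mice against 3 cannot go below 0.10. The interval excludes a change in either direction as large as that between the MSC groups.

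Markers of other cells were compared beside the Ccdc50 values, in 13 lists. Between scMSC and scivMSC 0 marker genes were called, where 0.00457% of all genes were called, so the count does not show that cell makeup was alike. Median log2 fold changes of the lists in scMSC relative to scivMSC ran from -1.16 for neutrophil markers to 1.35 for hair markers. Keratinocyte markers of the labelled tissue, 6 genes, summed to 4377 FPKM or more in every library. For 11 lists the summed level overlapped between scMSC and scivMSC. Hair shaft and inner root sheath genes, 9 of the 10 listed, summed to 4616 to 12843 FPKM in scMSC and 1818 to 4400 in scivMSC, and 0 of the 9 were at 0 in any library. Their log2 fold changes were 0.96 to 1.83 and the lowest adjusted p was 0.565. The hair sum was 233 to 718 FPKM in DNCB and 11.5 to 276 in control, lower in both than in scivMSC. Sebaceous gland genes, all 6 listed, summed to 402 to 638 FPKM in scMSC and 676 to 898 in scivMSC, with 0 genes at 0 in any library, log2 fold changes of -1.13 to 0.14 and a lowest adjusted p of 0.605. The sebaceous sum in control, 588 to 757 FPKM, and in DNCB, 585 to 759, overlapped that of scMSC, but the sum hides opposite changes. In DNCB relative to control, where 14.2% of all genes were called, 5 of the 6 sebaceous genes were called lower and 1 higher. Their median log2 fold change was -2.90. The part of either list in the Ccdc50 difference was not tested. A processed copy, Ccdc50-ps on chromosome 4 at 100567108 to 100568048, can share reads with the gene, and it held at most 31 estimated counts in any library and at most 12 in an scMSC library.

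Around Ccdc50, nothing measured within 1 Mb followed its low level in scMSC. The table holds 8 genes in that window, and 0 of them overlap Ccdc50. Of these, 3 passed the filter of a mean of 0.1 FPKM, and 5, Gmnc, Gm32312, Uts2b, Gm18234 and Fgf12, did not, with means of at most 0.0391 FPKM. Uts2b, which encodes a vasoactive peptide and is the closest gene, 18.6 kb away, was thus too low to compare.

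The nearest tested gene was Ostn, 37.7 kb before the start of Ccdc50 at 27307489 to 27351212, which encodes osteocrin, a secreted peptide made by muscle and bone. Its levels were 1.33, 0.399 and 0.955 FPKM in control and 0.142, 0.314 and 0.268 in DNCB. scMSC skin had 0.0967, 0.0328 and 0.164 FPKM and scivMSC skin 0.0969, 0 and 0.0687. The control libraries lay above all others, and the MSC groups overlapped. Skeletal muscle markers were also lower in DNCB than in control, with a median log2 fold change of -2.03. Of the 6 markers, 5 were called lower, where 14.2% of all genes were called, and their part was not tested. Ostn had a log2 fold change of -2.05 ± 0.95 in DNCB relative to control with an adjusted p of 0.141 in edgeR, and 0.73 ± 0.98 in scMSC relative to scivMSC with an adjusted p of 0.968. With DESeq2 the DNCB comparison had an adjusted p of 0.0474.

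Il1rap, the accessory chain that receptors of the interleukin-1 family share, ends 659 kb before Ccdc50. It was called higher in DNCB than in control, with a log2 fold change of 1.23 ± 0.21 and an adjusted p of 0.00229 in edgeR. Against the MSC groups, in which 8.5% of genes were called for scMSC and 5.46% for scivMSC, Il1rap was also called. Between the MSC groups it did not follow Ccdc50: the scMSC libraries had 2.15, 1.64 and 1.37 FPKM, the scivMSC libraries 2.20, 1.82 and 1.51, and the log2 fold change was -0.081 ± 0.21 with an adjusted p of 0.986. Neutrophil markers were also highest in DNCB, their 6 genes summing to 2456 to 3426 FPKM against 120 to 207 in control, 15.8 to 65.1 with scMSC and 34.1 to 177 with scivMSC. So were fibroblast markers, with 1916 to 2233 FPKM in DNCB and at most 946 elsewhere, in scivMSC. Endothelial markers had 52.3 to 63.8 FPKM in DNCB and at most 46.0 elsewhere, in scMSC. In the other lists the DNCB sums did not lie above all other libraries. The part of these markers was not tested. Gm20319, which overlaps Il1rap on the other strand, had -0.073 ± 1.18 in scMSC relative to scivMSC and is uncertain for that overlap.

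**Figure D3:**
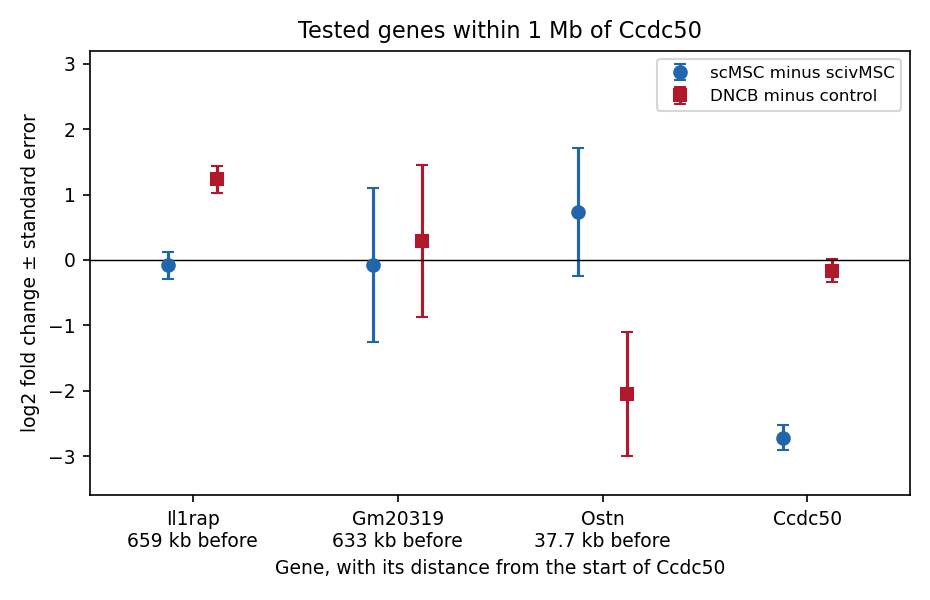
Log2 fold change ± standard error (vertical axis) of the 3 tested genes within 1 Mb and of Ccdc50, ordered by position, in scMSC relative to scivMSC (blue circles) and DNCB relative to control (red squares). The blue values are -0.081 for Il1rap, -0.073 for Gm20319, 0.73 for Ostn and -2.72 for Ccdc50.

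No gene tracked Ccdc50 closely across the 12 libraries. Likeness was Pearson's r on log2(FPKM + 0.1) over the 12 libraries, among 14385 other genes whose mean reached 1 FPKM, and is a description without a p. The libraries fall into groups with only scMSC apart, so an r is set mainly by whether a gene is low or high in scMSC, and r was computed again after the group means were removed. Of the 14385 genes, 0 had an r over 0.9 and 1 had an r under -0.9.

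The 5 genes with the highest r were Btd, Irx5, Mtx1, Atxn1 and Ttc39a, each lower in every scMSC library than in the other 9. Btd, which encodes biotinidase, the enzyme that recycles biotin, had an r of 0.885, and 0.50 after removal of group means. Its level was 5.95 ± 0.612 FPKM in scMSC and 8.56 ± 0.577 in scivMSC, 1.44-fold apart where Ccdc50 was 6.68-fold apart. Irx5, a homeobox transcription factor, had an r of 0.866 and 0.014 after removal. Mtx1, a component of protein import into mitochondria, had 0.865 and 0.24. Atxn1, a nuclear regulator of transcription, had 0.850 and 0.029. Ttc39a had 0.843 and -0.13, and with 0.781 ± 0.166 FPKM in scMSC and 1.42 ± 0.259 in scivMSC it was the member of the 5 with the widest gap, 1.81-fold.

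The 5 genes with the lowest r were higher in every scMSC library than in the other 9. Fhod3, a formin that organizes actin filaments, had an r of -0.902, and -0.42 after removal, with 11.8 ± 4.09 FPKM in scMSC and 4.82 ± 0.763 in scivMSC. Ppp2r5e, a regulatory subunit of protein phosphatase 2A, had -0.887 and -0.072. Dach1, a transcriptional regulator, had -0.874 and -0.17. 1700123O20Rik had -0.866, and -0.90 after removal, the value farthest from 0 among the 10. Cryl1, a dehydrogenase of gulonate, had -0.865 and -0.052. None of the 10 genes is on chromosome 16, where Ccdc50 lies.

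**Figure D4:**
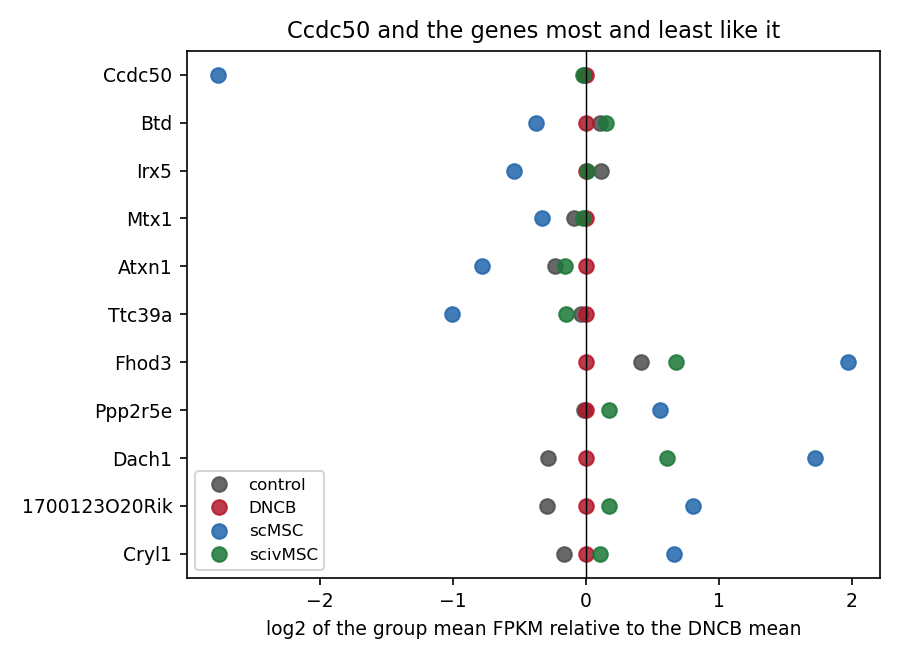
Group mean level relative to the DNCB mean (horizontal axis, log2 of the ratio of FPKM means, n = 3 mice per group) for Ccdc50, for the 5 genes with the highest r and for the 5 with the lowest, with 1 point per group. Ccdc50 has the scMSC point farthest from DNCB, and the folds of the genes most like it, such as 1.44 for Btd between scivMSC and scMSC, are smaller. In the other direction the scMSC point of Fhod3 lies farthest, with means of 11.8 FPKM in scMSC and 3.01 in DNCB.

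The pathways in which the Ccdc50 protein is known to act were followed in 3 lists of genes, around A20, the RIG-I-like receptors and selective autophagy. Of the 46 genes listed, 41 were tested, and their log2 fold changes in scMSC relative to scivMSC lay between -0.56 and 0.40. In edgeR 0 of them were called, with a lowest adjusted p of 0.565, where 0.00457% of all genes were called, Ccdc50 alone. A count of 0 is therefore no result about these genes. The lists had medians of -0.012 for the A20 group, -0.12 for the RIG-I-like receptor group and 0.099 for the autophagy group, beside -0.0077 for all genes. Comparisons with DNCB share the DNCB libraries.

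Of the 17 tested genes around A20, 5 passed an adjusted p of 0.05 in DNCB against control, 4 higher and 1 lower, where 25.3% of all genes passed. Against scMSC it was 6, 5 higher and 1 lower, where 12.7% passed, and against scivMSC 1, where 8.16% passed. The count against control was 2 without control replicate 1 and 3 without control replicate 2 or DNCB replicate 3. The count against scMSC was 1 without DNCB replicate 2, 2 without DNCB replicate 1, DNCB replicate 3 or scMSC replicate 2, and 3 without scMSC replicate 3. Nfkbie, which encodes the NF-κB inhibitor IκBε, was the 1 member called in each comparison with DNCB. Of all genes, 14.2% were called against control, 8.5% against scMSC and 5.46% against scivMSC. A count of 1 of 17 does not stand clearly above these shares. DNCB skin held 3.62 ± 0.429 FPKM of Nfkbie, control skin 1.53 ± 0.0369, scMSC skin 1.38 ± 0.409 and scivMSC skin 1.11 ± 0.179. Its log2 fold change in edgeR was 1.06 ± 0.25 against control (adjusted p of 0.00999), 1.37 ± 0.25 against scMSC (0.00576) and 1.68 ± 0.25 against scivMSC (0.00533). The neutrophil, fibroblast and endothelial markers given beside Il1rap were likewise highest in DNCB, and their part was not tested. Tnfaip3, the gene for A20 itself, had 3.45 ± 0.837 FPKM in DNCB and 2.26 ± 0.398 in control, with an adjusted p of 0.240. Tnip1, which encodes a binding partner of A20, had 10.1 ± 0.762 and 9.60 ± 1.14 FPKM and an adjusted p of 0.555.

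Among the 10 tested genes of the RIG-I-like receptor pathway, 1 passed an adjusted p of 0.05 in DNCB against control, where 25.3% of all genes passed, 1 against scMSC, where 12.7% passed, and 0 against scivMSC, where 8.16% passed. These counts do not stand above the background. Mavs, the mitochondrial adaptor of these receptors, was lower in DNCB than in control, with 10.1 ± 0.584 and 14.2 ± 0.689 FPKM, a log2 fold change of -0.68 ± 0.12 and an adjusted p of 0.00264 in edgeR. Dhx58, which encodes the receptor LGP2, was called higher in DNCB than in scMSC, with 2.11 ± 0.299 and 0.649 ± 0.297 FPKM, 1.68 ± 0.40 and 0.0207. Leaving out DNCB replicate 1, DNCB replicate 3, scMSC replicate 2 or scMSC replicate 3 raised that adjusted p to 0.0591 to 0.0807 and left 0 genes of the list. The list counted 2 genes against control without control replicate 2 or 3, scMSC replicate 1 or 3 or scivMSC replicate 3, 2 against scMSC without control replicate 2, and 1 against scivMSC without control replicate 3 or scivMSC replicate 2. Ddx58, the gene for RIG-I, had a log2 fold change of 0.069 ± 0.29 in DNCB relative to control with an adjusted p of 0.898, and Ifih1, the gene for MDA5, had -0.80 ± 0.27 with 0.0523.

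Of the 14 tested autophagy receptors and Atg8-family genes, 8 were lower in DNCB than in control at an adjusted p of 0.05 and 0 were higher, where 25.3% of all genes passed in either direction, with a median of -0.51 beside 0.022 for all genes. With library size alone it was 6 lower and 1 higher. Map1lc3a, a ubiquitin-like protein of the autophagosome membrane, had 46.9 ± 1.90 FPKM in DNCB and 105 ± 11.8 in control, a log2 fold change of -1.35 ± 0.15 and an adjusted p of 0.000544 in edgeR. Optn, an autophagy receptor that binds ubiquitin, had 4.55 ± 0.435 and 8.68 ± 2.29 FPKM, -1.12 ± 0.22 and 0.00446. Sqstm1, the gene for the receptor p62, had 65.9 ± 1.35 and 94.1 ± 15.1 FPKM, -0.70 ± 0.18 and 0.0157. Skeletal muscle markers fell in the same comparison, with 5 of 6 called lower and a sum of 12963 to 18263 FPKM in control and 3765 to 5260 in DNCB. Sebaceous gland genes fell too, 5 of 6 called lower and 1 higher, as did adipocyte genes, 2 of 6 called lower with a median of -0.82. Genes of other lists were called higher in DNCB, such as 6 of 6 neutrophil, 4 of 6 fibroblast, 4 of 6 melanocyte and 3 of 6 keratinocyte genes. Of all genes, 14.2% were called in this comparison. The part of these lists in the autophagy values was not tested.

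Against scMSC, where 12.7% of all genes passed, 5 of the 14 autophagy genes were lower in DNCB and 0 higher, with a median of -0.40. Against scivMSC, where 8.16% passed, 5 were lower and 1 higher, with a median of -0.26. The count of lower genes was 1 against scMSC without DNCB replicate 1 or scMSC replicate 2, and 2 without DNCB replicate 2 or 3. Against scivMSC it was 1 without any 1 of the DNCB replicates or without scivMSC replicate 1 or 3, 2 without control replicate 2, and 3 without control replicate 3 or scivMSC replicate 2. Calcoco1, a receptor for autophagy of the endoplasmic reticulum, was the member called against scMSC, with 12.1 ± 0.316 FPKM in DNCB, 25.6 ± 3.49 in scMSC and 22.0 ± 4.17 in scivMSC, a log2 fold change of -1.11 ± 0.16 and an adjusted p of 0.00239 in edgeR. Beside these genes, 6 of 9 hair genes were called lower in DNCB than in scMSC, with a median of -4.17. So were 5 of 6 sebaceous genes, with a median of -2.52, and 3 of 6 melanocyte genes, with a median of -1.39. In that comparison 8.5% of all genes were called in either direction, and 1 sebaceous gene was called higher. Against scivMSC, where 5.46% were called, 4 of 9 hair genes and 5 of 6 sebaceous genes were called lower. So were 2 of 6 adipocyte genes and 1 of 6 melanocyte genes, while 1 sebaceous gene and 1 adipocyte gene were called higher. Genes of other lists were called higher in DNCB in both comparisons, such as 6 of 6 neutrophil genes and 2 of 6 keratinocyte genes. The muscle sum overlapped between DNCB and scMSC, where it was 3798 to 8646 FPKM. The part of these lists was not tested. For none of the 3 lists did the MSC groups, which stand apart in Ccdc50, yield a called gene. Of all genes, 0.00457% were called between these groups, so this does not set the lists apart from other genes.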

How the data were processed

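Ccdc50 was followed in 12 dorsal skin libraries, 3 per group. The series text describes 12 mice in 4 groups, the study itself larger groups, and each library was taken as 1 mouse. No label states this, and otherwise p-values measure only the spread between these samples, which may be technical. Groups follow the sample titles. The authors deposited estimated counts, which are whole numbers, and FPKM values scaled to library size and gene length, the counts without normalization between libraries. The submitters' processing notes name HISAT2 2.0, StringTie 1.3.0 and Bowtie 0.12.2 and the build mm8, whereas 36284 of the 36400 genes overlap their GRCm38 position in GENCODE M21. Totals were 63877153 to 75134001 estimated counts, and 38.9% to 41.2% of counts from 1 to 18 were multiples of 4. Intervals and floors cover counting error and the spread between mice only.

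The 21890 genes whose mean reached 0.1 FPKM were tested by quasi-likelihood in edgeR 4.0.16, run under R 4.3.3, on the estimated counts, with TMM factors (0.887 to 1.06), 1 model of the 4 groups and Benjamini-Hochberg adjustment. Standard errors derive from the F statistic. Ccdc50 and the lists were chosen with earlier results of these data known. Named genes were Ccdc50, tested genes within 1 Mb, called or best known members of 3 lists, the 5 genes most and least like Ccdc50 and the 3 nearest outside the call. Alternatives used other scalings and filters, DESeq2 1.42.0, limma 3.58.1 on log2(FPKM + 0.1) or log2(FPKM + 1), counts divided by 4, only the 6 libraries compared, a replicate block and each library left out. Python 3.11.15 with scipy 1.17.1, numpy 2.4.6, pandas 2.3.3 and matplotlib 3.10.9 served for tables and plots, and the fits were checked on simulated data.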

Additional observations from a re-analysis of the deposited data

How the results depend on the processing

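Ccdc50 was called between scMSC and scivMSC in all 22 alternatives, with a log2 fold change that moved most with limma on log2(FPKM + 1), to -2.07, and ran from -2.90 to -2.62 when 1 library was left out. Leaving out a DNCB library left it at -2.72. This difference chose the gene and the alternatives reuse the same libraries, so the repeated calls are a description and no test. For DNCB against control, the log2 fold change of Ccdc50 turned to 0.015 with library size alone, 0.034 with limma on log2(FPKM + 0.1) and 0.029 with limma on log2(FPKM + 1), and ran from -0.34 to -0.13 when 1 library was left out. Its adjusted p ran from 0.240 to 0.969. Tnip1 turned to 0.077, 0.081 and 0.074 in the same 3 settings. Genes called between scMSC and scivMSC numbered 115 with DESeq2, 2 with limma on log2(FPKM + 0.1), 3 with only the 6 libraries compared and 1 to 5 when 1 library was left out, with 5 without scMSC replicate 3 and 2 without control replicate 1, DNCB replicate 1, scMSC replicate 2 or scivMSC replicate 2. Called neighbours in DNCB against control numbered 2 with DESeq2, limma on log2(FPKM + 0.1) and only the 6 libraries compared, and 1 to 2 when 1 library was left out, with 2 without scivMSC replicate 2, where Ostn joined Il1rap. With limma on log2(FPKM + 1) 0 neighbours were called against scMSC and 0 against scivMSC. When 1 library was left out, 1 neighbour was called against scMSC and 0 to 1 against scivMSC, with 0 without DNCB replicate 1 or scivMSC replicate 3, where the adjusted p of Il1rap was 0.0522 and 0.0524. Called genes of the 3 lists numbered 1 in DNCB against control and 1 against scMSC with limma on log2(FPKM + 1), and 2 against scivMSC with DESeq2 or only the 6 libraries compared. Leaving out 1 library gave 2 to 4 against control, 1 to 5 against scMSC (5 without scMSC replicate 1, 1 without scMSC replicate 2) and 1 to 2 against scivMSC (2 without control replicate 3). Sqstm1 in DNCB against control had an adjusted p of 0.0543 and 0.0532 without DNCB replicate 1 and 3. At an adjusted p of 0.05 alone, the A20 list counted 3 genes against control and 3 against scMSC with no filter on low values, and 3 against scMSC with only the 6 libraries compared. The RIG-I-like receptor list counted at most 3 genes in any setting, with DESeq2 against control. The autophagy list counted 3 lower genes against scivMSC with no filter or with DESeq2 size factors in edgeR. Ostn was absent from the setting of a mean of at least 1 FPKM. For these changes the cause was not tested.

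No pairing of the libraries by replicate number was visible. Same-numbered libraries of different groups had correlations of -0.32 to 0.23 in their deviations from the group means, over 0.1 in 3 of 18 pairs. Of 12 libraries, 3 correlated best with their own number. With 3 libraries per group, these values cannot show that no pairing exists. With a replicate block, Ccdc50 had -2.72 in scMSC relative to scivMSC and -0.16 in DNCB relative to control, and 1 gene was called between the MSC groups. The block left 2 autophagy genes lower in DNCB than in scivMSC.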

Other observations

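Among 14386 genes whose mean reached 1 FPKM, all 3 scMSC libraries lay below all 9 others for 89 genes (0.619%), and by a gap of at least 4-fold for 2, Ccdc50 and Sprr2e. Ccdc50 was chosen by its scMSC values and its own gap was 4.06-fold, so its place here is a description and no test. Gaps of this size set the DNCB libraries below all 9 others for 31 genes and above them for 61. They set the control libraries below for 27 genes and above for 6. Sprr2e, a cornified envelope gene chosen here after its values were seen, had 0, 0.216 and 0.291 FPKM in scMSC, 1.20, 14.4 and 1.52 in scivMSC, 33.0, 36.4 and 40.8 in DNCB and 6.83, 5.31 and 9.12 in control, and shares sequence with its close relatives, so its values are uncertain. No gene was separated by such a gap above all others in scMSC, or in either direction in scivMSC.

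Nnt, the mitochondrial transhydrogenase gene, also named after its values were seen, appears under 2 identifiers. Control replicate 2 had 1.28 FPKM under ENSMUSG00000025453 and 34.3 under ENSMUSG00000116207, while the other 11 libraries had 6.34 to 21.1 and 0. Whether this library differs from the others in strain or sample identity was not tested. Its Ccdc50 level, 9.63 FPKM, lay between those of the other control libraries. Without it, the log2 fold change of Ccdc50 in DNCB relative to control was -0.14 ± 0.21 (standard error), with an adjusted p of 0.702 in edgeR.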
